A study of Mus musculus with 12 samples.

Results

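MiRNA levels in the hearts of diabetic mice treated with pargyline (D + P) were set against those in the hearts of control mice treated with pargyline (C + P), within 1 microarray slide. The arrays were chosen by their labels, 6 of the 12 in the series, with 1 array for each of 3 C + P and 3 D + P hearts. All mice were male C57BL6/J mice aged 5 months, and the tissue was heart muscle. The C + P mice received pargyline, an inhibitor of the monoamine oxidases that break down amines on the mitochondrial surface, in daily doses of 50 mg/kg over 12 weeks. The D + P mice received the same pargyline treatment after 5 daily doses of 50 mg/kg of streptozotocin, which destroys the pancreatic cells that secrete insulin, and a blood glucose of at least 17 mM was called diabetic. Both groups thus carried pargyline, and the comparison asks how diabetes with pargyline differed from pargyline alone. Streptozotocin diabetes models the loss of insulin and is not a genetic model. Each array measured 1881 miRNAs, and 173 of these were detected on every one of the 6 arrays. Their levels are described as normalized log2 signals, on which a difference of 1 is a doubling. Of the others, 88 were detected on 1 to 5 of the 6 arrays and are described by their detection, and 1620 were detected on none.

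MiRNAs are short RNAs cut from a hairpin precursor. They pair with messenger RNAs mainly through their seed, bases 2 to 8 from the 5′ end, and lower the translation or stability of these targets, so miRNAs with the same seed have largely shared targets. In the heart, miR-1, miR-133, miR-208 and miR-499 are made by the muscle cells, while miR-142, miR-223, miR-146a and miR-150 are best known from blood and immune cells.

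The mature sequences below belong to the miRNAs on which the results turn, those with the largest differences between the groups, those whose detection differed in full, and 2 seed partners (let-7i-5p and miR-497a-5p) shown for contrast. Capitals mark the seed. The sequences were taken from RefSeq (GRCm38.p6).
miR-146a-5p: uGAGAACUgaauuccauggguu
miR-223-3p: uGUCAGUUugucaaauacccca
miR-142a-3p: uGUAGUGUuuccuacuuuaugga
let-7e-5p: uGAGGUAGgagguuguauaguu
let-7g-5p: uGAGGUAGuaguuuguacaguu
let-7i-5p: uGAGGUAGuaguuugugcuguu
miR-15b-5p: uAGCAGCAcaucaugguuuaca
miR-497a-5p: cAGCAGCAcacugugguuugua
miR-365-3p: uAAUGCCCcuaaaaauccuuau
miR-499-5p: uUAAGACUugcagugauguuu
miR-199a-3p: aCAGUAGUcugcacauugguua
miR-21a-5p: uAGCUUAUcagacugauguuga
miR-378d: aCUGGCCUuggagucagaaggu
miR-5622-3p: cUUAGCUGgguagugguggugc
miR-7118-5p: uGGGGAAGgcgggagagggaac
miR-3102-5p: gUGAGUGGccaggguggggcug
miR-208a-5p: gAGCUUUUggcccggguuauac
miR-466q: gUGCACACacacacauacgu
MiR-126a-5p, miR-150-5p, miR-1a-3p, miR-30d-5p, miR-486a-5p and miR-378a-3p also had large differences.

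Among the miRNAs lower in D + P, miR-146a-5p lies at chr11:43374435-43374456 on the minus strand, miR-223-3p at chrX:96242884-96242905 on the plus strand within the span of the long non-coding RNA F630028O10Rik, and miR-142a-3p at chr11:87756903-87756925 on the plus strand. Let-7e-5p lies at chr17:17830366-17830387 (plus strand) within Spaca6, let-7g-5p at chr9:106178846-106178867 (plus strand) within Wdr82, miR-15b-5p at chr3:69009775-69009796 (plus strand) within Smc4, and miR-21a-5p at chr11:86584120-86584141 (minus strand) within Vmp1. MiR-365-3p is encoded at chr11:79726467-79726488 and chr16:13453895-13453916 (both plus strand). MiR-199a-3p is encoded at chr1:162217883-162217904 (plus strand) within Dnm3 and at chr9:21496498-21496519 (minus strand) within Dnm2. MiR-499-5p lies within Myh7b at chr2:155622893-155622913 (plus strand) and miR-208a-5p within Myh6 at chr14:54949107-54949128 (minus strand), both genes of cardiac myosin heavy chains. Among those higher in D + P, miR-378d lies at chr10:126710355-126710376 (minus strand), miR-5622-3p at chr2:152865105-152865126 (plus strand) within Tpx2, miR-7118-5p at chr15:89162882-89162903 (minus strand) within Plxnb2 and miR-3102-5p at chr7:100882388-100882409 (minus strand) within Arhgef17. MiR-466q, which was detected on the C + P arrays and on no D + P array, lies at chr3:28419988-28420007 (plus strand) within Tnik. "Within" here refers to the span of the gene, as the annotation used does not separate exons from introns.

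Before the results, the arrays themselves differed. The number of detected miRNAs was 214, 218 and 253 in C + P and 187, 218 and 215 in D + P, and the groups overlapped (difference -21.7, exact permutation test, two-sided, p = 0.5). The summed signal of the detected miRNAs was 57895, 62751 and 89040 in C + P and 39661, 50432 and 58631 in D + P (p = 0.2 in the same exact test, in which 3 arrays against 3 cannot give a p below 0.1). The array D + P 1 had the fewest detected miRNAs, the lowest summed signal and the lowest signal of the array's control features (mean log2 signal 10.3, against 10.9 to 11.5 on the other arrays). After normalization, the difference of a D + P array from the C + P mean had a SD over the 173 miRNAs of 0.94 for D + P 1, 0.48 for D + P 2 and 0.29 for D + P 3, and 51, 5 and 1 miRNAs differed by more than 1. D + P 3 lay closest to the C + P arrays, and for 119 of 173 miRNAs it was the D + P array nearest to the C + P mean. Its deviations from the 6-array mean correlated on average at r = 0.26 with those of the C + P arrays. With those of the other D + P arrays the average r was -0.40. The 6-array mean includes the larger shift of D + P 1, so an array with a small shift can correlate this way whatever its group. These correlations run across miRNAs, and miRNAs are no independent replicates. The C + P arrays lay in row 1 of the slide and the D + P arrays in row 2, so array row and diabetes cannot be told apart.

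**Figure D1:**
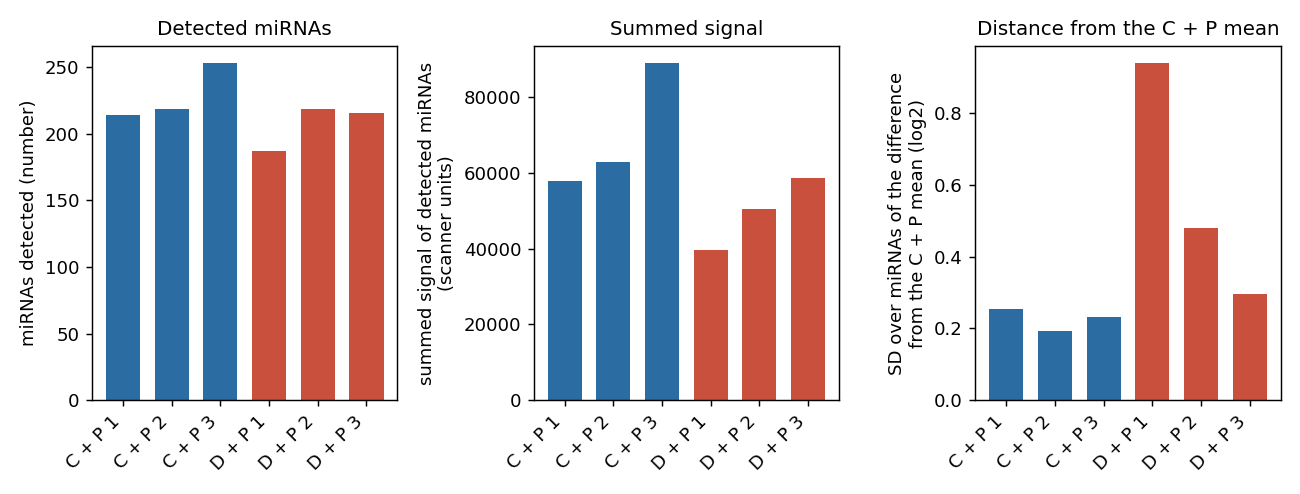
Number of detected miRNAs (left), summed scanner signal of the detected miRNAs (middle) and the SD over 173 miRNAs of each array's difference from the C + P mean on the log2 scale (right), for each of the 3 C + P arrays (blue) and 3 D + P arrays (red). D + P 1 had the fewest detected miRNAs (187), the lowest summed signal (39661) and the largest distance (0.94).

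The miRNA with the clearest difference was miR-146a-5p, an inhibitor of inflammatory Toll-like receptor signaling, which fell in D + P hearts. Its normalized log2 signal was 4.35, 4.09 and 4.15 on the C + P arrays and 2.10, 2.11 and 2.84 on the D + P arrays. Every D + P array was below every C + P array, with a gap of 1.25 between the groups. The log2 change was -1.85 ± 0.24 (standard error; 95% confidence interval -2.39 to -1.30; limma adjusted p = 0.0059), a level 3.59-fold lower in D + P. Its scanner signals were 16.3, 15.8 and 28.0 in C + P. In D + P they were 3.65, 4.56 and 6.78, and those of D + P 1 and 2 were near the lowest detected. The size of the change is thus uncertain, and with 16 added before the log2 it was -0.68 (limma adjusted p = 0.025). MiR-146a-5p was the only miRNA of 173 (0.578%) past the threshold of 0.05 after Benjamini-Hochberg adjustment. At an unadjusted limma p under 0.05 there were 42 miRNAs (24.3%), and in D + P 18 of these were higher and 24 lower. On 32 miRNAs (18.5%) all D + P arrays were above all C + P arrays, and on another 32 (18.5%) all were below. The call of miR-146a-5p was lost when any 1 of the C + P arrays was left out (limma adjusted p = 0.073, 0.057 and 0.071 without C + P 1, 2 and 3), with the change between -1.90 and -1.78. The number of miRNAs called was 67 of 173 (38.7%; 32 higher, 35 lower) without D + P 3. Without D + P 1 it was 3 of 197 (1.52%), namely miR-146a-5p, miR-223-3p and miR-466h-3p, all lower in D + P. Single arrays thus decided this count.

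**Figure D2:**
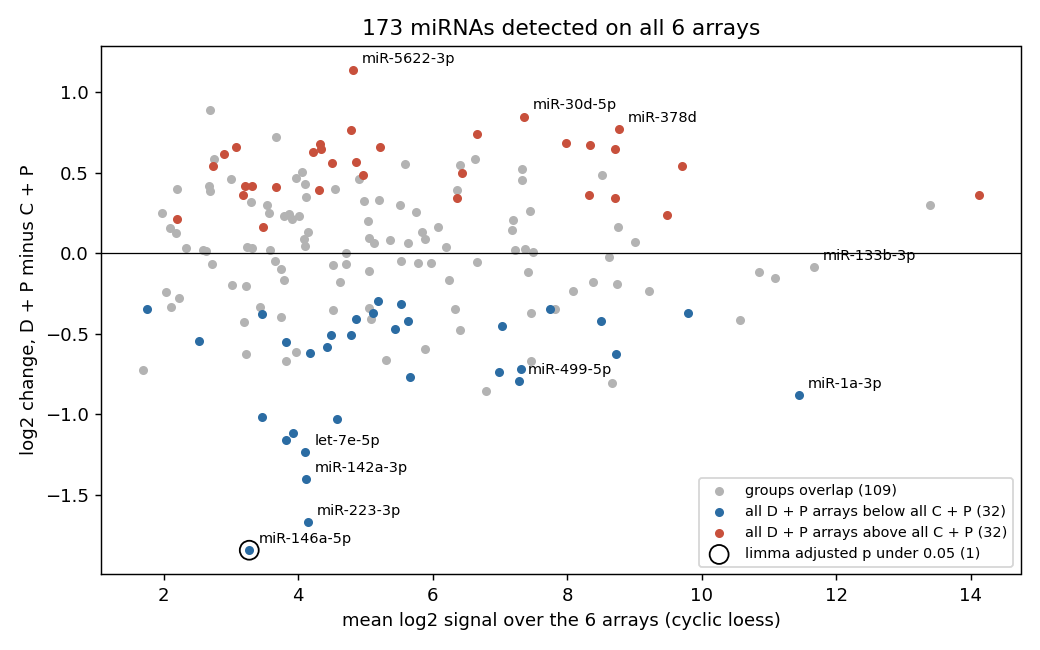
Log2 change (D + P minus C + P, vertical axis) against the mean normalized log2 signal over the 6 arrays (horizontal axis) of the 173 miRNAs detected on all 6 arrays. Colors mark the 32 miRNAs with all D + P arrays below all C + P arrays (blue) and the 32 above (red), and the circle marks miR-146a-5p, the only call.

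The other miRNAs most known from immune cells lay on the same side. MiR-223-3p, which is abundant in neutrophils and other myeloid cells, measured 4.92, 4.96 and 5.07 in C + P and 2.51, 3.42 and 4.00 in D + P. Its change was -1.67 ± 0.34 (standard error) and it did not pass (limma adjusted p = 0.075), but it was called, besides miR-146a-5p, without D + P 1. MiR-142a-3p, made in cells of the blood lineage, measured 4.95, 4.70 and 4.80 in C + P and 2.15, 3.83 and 4.26 in D + P (change -1.41). For miR-150-5p, a miRNA of mature lymphocytes, the values were 3.92, 4.03 and 3.96 in C + P and 1.86, 3.29 and 3.71 in D + P (change -1.01). MiR-342-3p measured 4.15, 4.13 and 4.02 in C + P and 3.27, 3.51 and 3.86 in D + P (change -0.55). In each of these 4 the groups did not overlap, D + P 1 was the lowest array and D + P 3 the D + P array nearest to C + P. None of the 4 passed the adjusted threshold (limma adjusted p between 0.075 and 0.19). On D + P 1 the scanner signals of miR-142a-3p and miR-150-5p were 3.25 and 3.01, also near the lowest detected.

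Taken as a list, 5 of 8 immune cell miRNAs were detected on all 6 arrays, and all 5 were lower in D + P and did not overlap (against 18.5% of all tested miRNAs in that direction), with a median change of -1.41 beside 0.03 over all 173 miRNAs. Every C + P array detected miR-142a-5p and miR-155-5p, as did D + P 2 and 3 but not D + P 1, and miR-146b-5p on none. The summed scanner signal of the list was 110 to 200 in C + P and 21.6 to 82.0 in D + P. The median of the 5 was -2.11 on D + P 1, -0.99 on D + P 2 and -0.56 on D + P 3, relative to the C + P mean. Without D + P 1, 7 members entered, all 7 were lower and the median was -0.71. In that setting 2 of them were called, beside 1.52% of all 197 tested. Without D + P 3 all 5 were called, beside 38.7% of all 173. In a bulk sample, fewer cells of a type and less of the RNA per cell cannot be told apart.

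The labelled tissue was checked against its markers. Of 7 heart muscle miRNAs 6 were detected on all 6 arrays, and miR-208b-3p on none. All 8 miRNAs listed for other organs (among them miR-122-5p of liver, miR-124-3p and miR-9-5p of brain, miR-375-3p of endocrine pancreas and miR-206-3p of skeletal muscle) were undetected on every one of the 6 arrays. Outside that list, miR-192-5p and miR-194-5p, miRNAs of liver and gut, were detected on every array but D + P 1. The sample records' extraction text names macrophages, while the tissue field names heart muscle. Among the heart muscle miRNAs, miR-1a-3p, which restrains muscle cell growth, measured 11.72, 11.93 and 12.00 in C + P and 10.35, 11.04 and 11.63 in D + P, with a change of -0.88 ± 0.30 (standard error) that did not pass (limma adjusted p = 0.15). MiR-499-5p, encoded within Myh7b, measured 7.60, 7.69 and 7.74 in C + P and 6.56, 6.88 and 7.21 in D + P, which gives a log2 difference of -0.79 ± 0.21 (standard error) at a limma adjusted p of 0.15. Neither overlapped between the groups. The others did overlap, with changes of -0.09 for miR-133b-3p, -0.16 for miR-133a-3p, 0.15 for miR-133a-5p and 0.09 for miR-208a-3p. The list's median was -0.12, and it was 0.06 with quantile normalization.

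**Figure D3:**
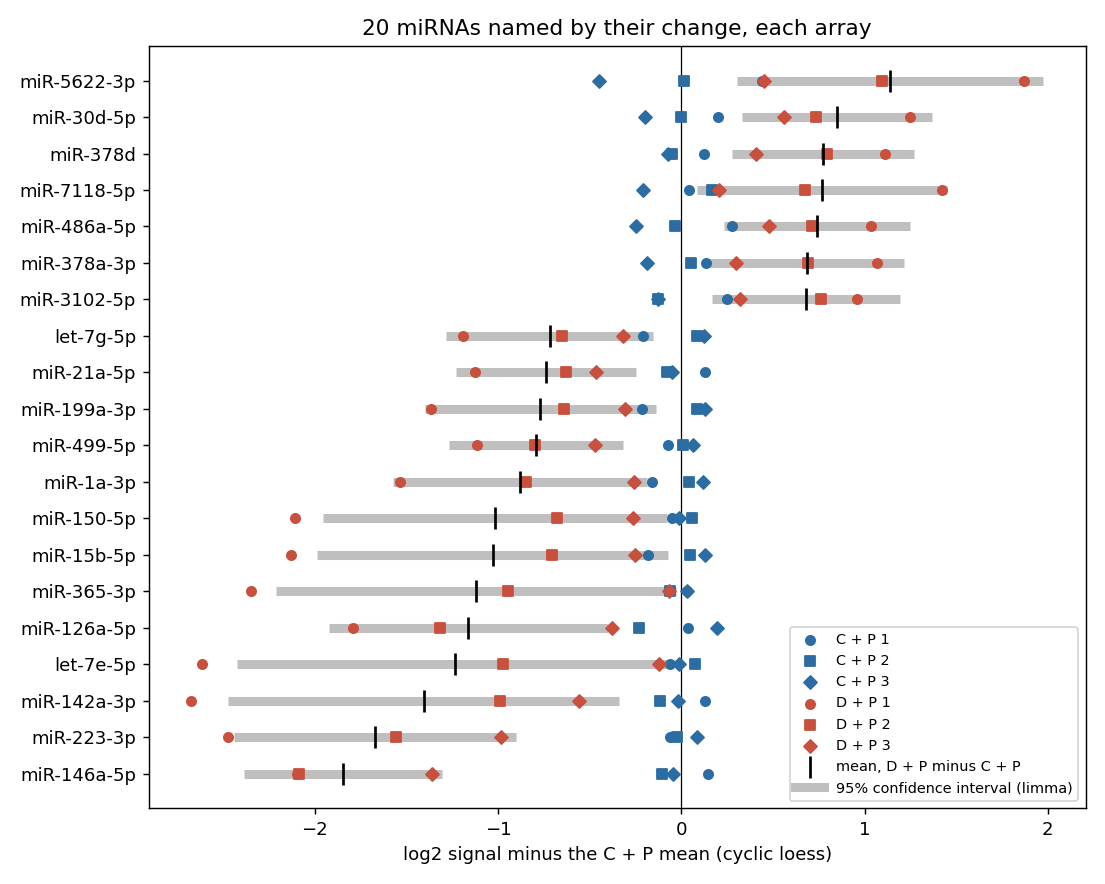
Normalized log2 signal of each array minus the C + P mean (horizontal axis) for the 20 miRNAs named by their change (vertical axis). Blue symbols are C + P arrays, red symbols D + P arrays, black ticks the mean change and grey bars its 95% confidence interval from limma. D + P 3 (red diamonds) was the D + P array closest to the C + P mean and D + P 1 (red circles) the farthest in all 20.

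Markers of the vessel wall and connective tissue were measured less completely. MiR-21a-5p, which is abundant in cardiac fibroblasts, measured 7.48, 7.28 and 7.30 in C + P and 6.23, 6.73 and 6.89 in D + P (change -0.74). MiR-199a-3p, also known from fibroblasts, measured 5.84, 6.14 and 6.18 in C + P and 4.69, 5.42 and 5.75 in D + P (change -0.77), while its partner from the same hairpins, miR-199a-5p, had a change of -0.07 and overlapped. From the endothelial miR-126a hairpin, miR-126a-5p measured 4.44, 4.17 and 4.59 in C + P and 2.61, 3.08 and 4.02 in D + P (change -1.16), and miR-126a-3p had a change of -0.37. Neither arm overlapped between the groups. The third endothelial miRNA, miR-221-3p, differed by 0.09. Of the smooth muscle miRNAs, miR-145a-5p was higher on all D + P arrays (change 0.57) and miR-143-3p overlapped (-0.34). Among red cell miRNAs, miR-486a-5p measured 6.57, 6.26 and 6.04 in C + P and 7.33, 7.00 and 6.77 in D + P (change 0.74), miR-144-3p was higher by 0.34 and miR-451a was lower by 0.23 with overlapping groups. None of these passed the adjusted threshold.

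The let-7 family, which represses genes of cell growth, shares the seed GAGGUAG. Of 9 members on the array 8 were tested, and 7 of them were lower in D + P. In 4 of these the groups did not overlap, against 18.5% of all tested miRNAs in that direction. After adjustment limma called 0 of the 8. Before adjustment the limma p of 5 was under 0.05, beside 24.3% of all 173 miRNAs. The median change was -0.65. Let-7e-5p had the largest, with 4.66, 4.80 and 4.71 in C + P and 2.11, 3.75 and 4.60 in D + P (change -1.24), followed by let-7f-5p (-0.80) and let-7g-5p. Let-7g-5p measured 7.47, 7.76 and 7.80 in C + P and 6.48, 7.02 and 7.36 in D + P (change -0.72). On let-7e-5p most of the change lay on D + P 1, where its scanner signal of 3.17 was near the lowest detected. D + P 3 was only 0.06 below the lowest C + P array. Let-7i-5p, with the same seed, had a change of 0.01 (95% confidence interval -0.38 to 0.40), with 7.34 to 7.58 in C + P and 7.43 to 7.57 in D + P. Let-7a-5p, let-7d-5p, let-7c-5p and let-7b-5p had changes of -0.63, -0.67, -0.42 and -0.24. Without D + P 1, miR-98-5p also entered, all 9 were lower and the median was -0.34, with 0 called by limma. Without D + P 3, 5 of 8 were called, beside 38.7% of all 173 miRNAs.

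Members of the miR-15 and miR-16 family share the seed AGCAGCA and restrain the cell cycle. All 6 were tested, 5 were lower in D + P, 2 of them without overlap (18.5% over all tested miRNAs), 0 passed and the median was -0.53. MiR-15b-5p measured 4.92, 5.14 and 5.22 in C + P and 2.97, 4.39 and 4.84 in D + P (change -1.03). MiR-16-5p, encoded within Smc4 and also within Dleu2, had 7.24, 7.26 and 7.29 in C + P and 6.55, 6.83 and 7.05 in D + P (change -0.46). MiR-497a-5p was the exception, higher by 0.13 with overlapping groups. MiR-365-3p, a neighbour of the miR-193 hairpins, measured 4.52, 4.42 and 4.52 in C + P and 2.14, 3.54 and 4.42 in D + P (change -1.12), with a gap between the groups of only 0.003. Its scanner signal on D + P 1 was 3.38, near the lowest detected. Without D + P 1 the median of the miR-15 and miR-16 family was -0.25. Without D + P 3, 5 of the 6 were called, beside 38.7% of all 173 miRNAs.

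The miRNAs that were higher in D + P included the whole measured miR-378 family. MiR-378a is encoded in the gene of the coactivator PGC-1 beta and is known from the control of mitochondrial metabolism. All 5 members were tested and were higher in D + P, 4 of them without overlap, against 18.5% of all tested miRNAs in that direction, and the median change was 0.67. None passed the limma threshold (4 at an unadjusted p under 0.05, beside 24.3% of all 173 miRNAs). MiR-378d measured 8.51, 8.33 and 8.31 in C + P and 9.50, 9.18 and 8.79 in D + P (change 0.77 with a standard error of 0.22 and a limma adjusted p of 0.15). MiR-378a-3p measured 7.78, 7.69 and 7.45 in C + P and 8.71, 8.33 and 7.94 in D + P (change 0.69). MiR-378b and miR-378c were higher by 0.67 and 0.50. The other arm of the miR-378a hairpin, miR-378a-5p, overlapped (change 0.20). Without D + P 3, 4 of the 5 were called, beside 38.7% of all 173 miRNAs. The miR-378 median was 0.51 without D + P 1 and 0.11 without normalization, where the median over all 173 miRNAs was -0.30.

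The miR-30 family was divided. MiR-30d-5p measured 7.13, 6.93 and 6.74 in C + P and 8.18, 7.67 and 7.50 in D + P (change 0.85 ± 0.23, standard error, limma adjusted p = 0.15), and miR-30a-5p (0.65) and miR-30e-5p (0.36) were also higher on every D + P array. These were 3 of 7 members tested, against 18.5% of all tested miRNAs in that direction, and the median of the 7 was 0.001. MiR-30b-5p and miR-30c-5p had changes of -0.37 and -0.35 with overlapping groups, although miR-30c-5p has the same seed as miR-30a-5p and miR-30e-5p. A similar division was seen in the miR-26 pair, in which miR-26a-5p was higher on every D + P array (8.82 to 8.95 against 8.49 to 8.57, change 0.35) and miR-26b-5p had a change of -0.85 with overlapping groups. The 3 other miRNAs named by a higher level have no function that is well known. MiR-5622-3p measured 4.68, 4.25 and 3.79 in C + P and 6.11, 5.33 and 4.69 in D + P (change 1.14 ± 0.37, standard error, limma adjusted p = 0.15). MiR-7118-5p had a change of 0.77 and miR-3102-5p of 0.68. On these 3 the gap between the groups was at most 0.07.

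**Figure D4:**
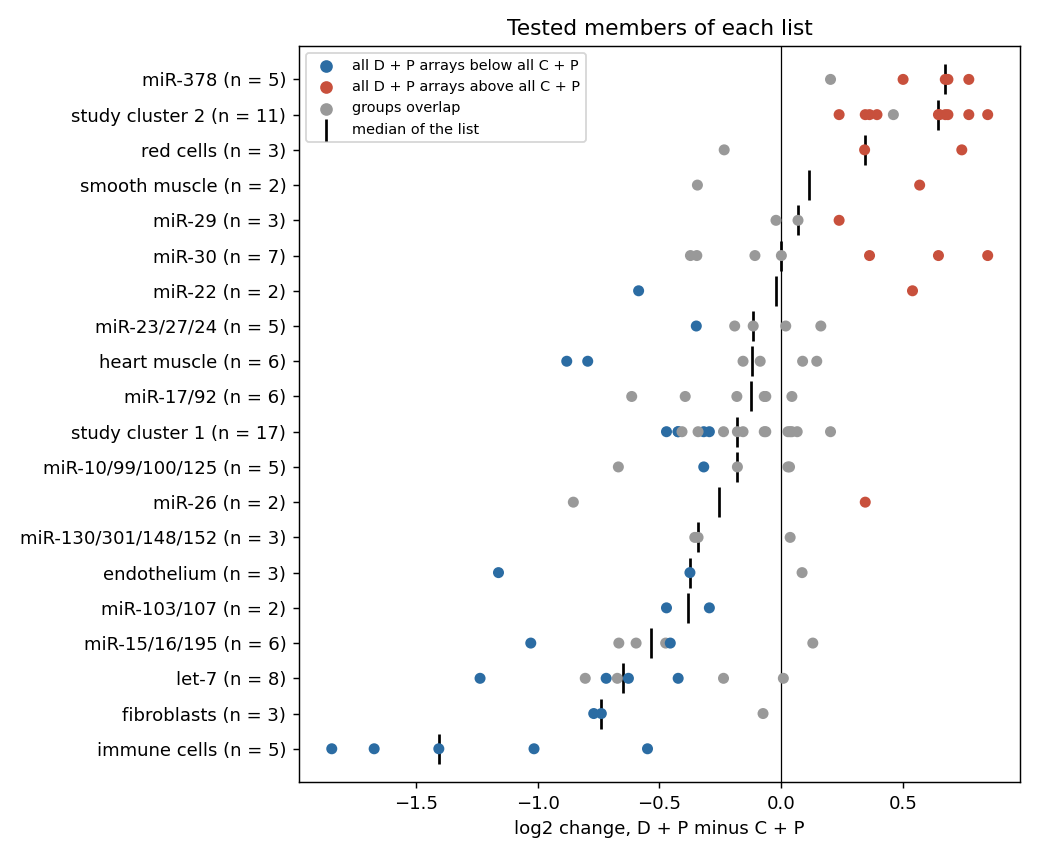
Log2 change (D + P minus C + P, horizontal axis) of each tested member of each list (vertical axis, with the number tested). Blue points had all D + P arrays below all C + P arrays, red points all above, and grey points overlapped. Black ticks are the medians, lowest for the immune cell miRNAs (-1.41) and highest for miR-378 (0.67).

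The miR-29 family, which lowers collagen, had a median of 0.07 over 3 members, and only miR-29a-3p (0.24) did not overlap. The miR-23/27/24 members had a median of -0.11, the miR-17/92 members -0.13 and members of the miR-10 and miR-99 families -0.18. For the pair of miR-103-3p and miR-107-3p, both lower without overlap (18.5% over all tested miRNAs), it was -0.38. The brightest signals on the 6 arrays were those of miR-6366, miR-3963, miR-133b-3p, miR-1a-3p and miR-133a-3p. MiR-6366 measured 13.96, 13.94 and 13.90 in C + P and 14.66, 14.17 and 14.06 in D + P (change 0.36), and miR-3963 differed by 0.30 with overlapping groups. Signals of different miRNAs depend on their probes and were not compared.

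The study followed up 7 miRNAs by qRT-PCR, chosen on arrays of this series. Of the 5 detected on all 6 arrays, 4 were lower in D + P, and 0 passed the limma threshold. Let-7f-5p measured 8.87, 9.20 and 9.15 in C + P and 7.54, 8.39 and 8.88 in D + P (change -0.80 ± 0.32, standard error, limma adjusted p = 0.19). The changes were -0.35 (95% confidence interval -0.84 to 0.13) for miR-152-3p, -0.16 (-0.62 to 0.31) for miR-133a-3p, -0.11 (-0.51 to 0.28) for miR-27a-3p and 0.07 (-0.36 to 0.50) for miR-185-5p. The directions for miR-133a-3p and miR-185-5p turned with the normalization. All 3 C + P arrays detected miR-193a-3p, with scanner signals of 4.26, 4.66 and 11.1, and D + P 2 and 3 had 3.79 and 4.56. MiR-193b-3p was detected on C + P 3 (8.49) and on D + P 2 and 3 (4.09 and 4.31).

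The study also grouped miRNAs into clusters on arrays that include these, so the direction of a cluster is not independent evidence. It describes the first cluster as raised in diabetic hearts and the second as lowered. Both are described as back at control levels under pargyline, and as unaffected by pargyline in control hearts. D + P against C + P is another comparison than these. The first cluster lists 37 miRNAs. The 6 arrays all detected 17 of them, 12 were lower in D + P and the median was -0.18. Of the 20 that were not, 0 were detected on D + P 1. That array detected 187 miRNAs, 173 of them on all 6 arrays, so it missed most of the 88 partly detected miRNAs. All 11 miRNAs of the second cluster, which holds miR-378a-3p, miR-378b, miR-378d, miR-30a-5p, miR-30d-5p and miR-30e-5p, were higher in D + P, with a median of 0.65. In 10 of them the groups did not overlap, against 18.5% of all tested miRNAs in that direction. In limma 0 of the 11 passed after adjustment. Before adjustment 6 of them were below 0.05, beside 24.3% of all 173 miRNAs. Relative to the C + P mean, the second cluster's median was 1.03 on D + P 1, 0.55 on D + P 2 and 0.28 on D + P 3, and the change over D + P 2 and 3 alone had a median of 0.37 with all 11 higher.

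Much of the difference in detection lay on single arrays, D + P 1 and C + P 3. The difference in detected miRNAs per array was -11.8 without D + P 1 and -9.33 without C + P 3, in place of -21.7. Of the 88 miRNAs detected on 1 to 5 arrays, 61 were detected on more C + P than D + P arrays, 13 on more D + P arrays and 14 on equal numbers. On all 3 C + P arrays but not on all 3 D + P arrays there were 32 miRNAs, and 31 of these were undetected on D + P 1, 24 of them on D + P 1 alone. Fewer were undetected on D + P 2 (7) and D + P 3 (4). Of these 32, miR-98-5p of the let-7 family had scanner signals of 14.1, 19.5 and 34.8 in C + P and 10.8 and 16.2 on D + P 2 and 3. The reverse pattern was seen for 2 miRNAs, miR-5119 and miR-1187, both undetected on C + P 1 only. The brightest array, C + P 3, was the only one to detect 16 miRNAs.

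Only miR-208a-5p and miR-466q were detected on all 3 arrays of one group and on none of the other, and both were detected in C + P. MiR-208a-5p, the passenger arm of the heart muscle miR-208a hairpin, had scanner signals of 3.30, 3.12 and 8.13, and on none of the 6 arrays outside this comparison was it detected. Its level was at least 1.63-fold higher in C + P, set against the lowest detected signals of the D + P arrays after cyclic loess. MiR-466q had signals of 4.01, 4.14 and 6.40 and was at least 1.78-fold higher on the same terms. These folds hold for that normalization, and an undetected miRNA need not lie below the lowest detected signal. The guide arm miR-208a-3p was detected on all 6 arrays and differed by 0.09. The lowest signals called detected on the 6 arrays were 1.34 to 1.96.

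Replicates were less alike in D + P. The median SD over 3 arrays was 0.124 in C + P and 0.343 in D + P, and 151 of 173 miRNAs had the larger SD in D + P. Without D + P 1 the D + P median was 0.167. On the signals without normalization the order turned, with a D + P to C + P ratio of 0.83 in place of 2.76.

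Differences also went with base composition. For 145 of the 173 miRNAs a mature sequence was in the reference, and their log2 change correlated with the share of G and C bases with r = 0.50 (Spearman's rho = 0.52), across miRNAs that share arrays and are not independent. The 49 miRNAs with at least 60% G and C had a median change of 0.30 and the other 96 of -0.09. The correlation was 0.58 for D + P 1, 0.44 for D + P 2 and 0.02 for D + P 3. MiR-146a-5p, miR-223-3p and let-7e-5p, lower in D + P, have 40.9% G and C, miR-142a-3p 34.8% and miR-365-3p 31.8%. Of the miRNAs higher in D + P, miR-7118-5p has 68.2% and miR-3102-5p 72.7%, but miR-5622-3p (59.1%) and miR-378d (54.5%) lie below the 60% split. The correlation with the mean level was 0.01. The part of base composition in the differences was not tested.

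**Figure D5:**
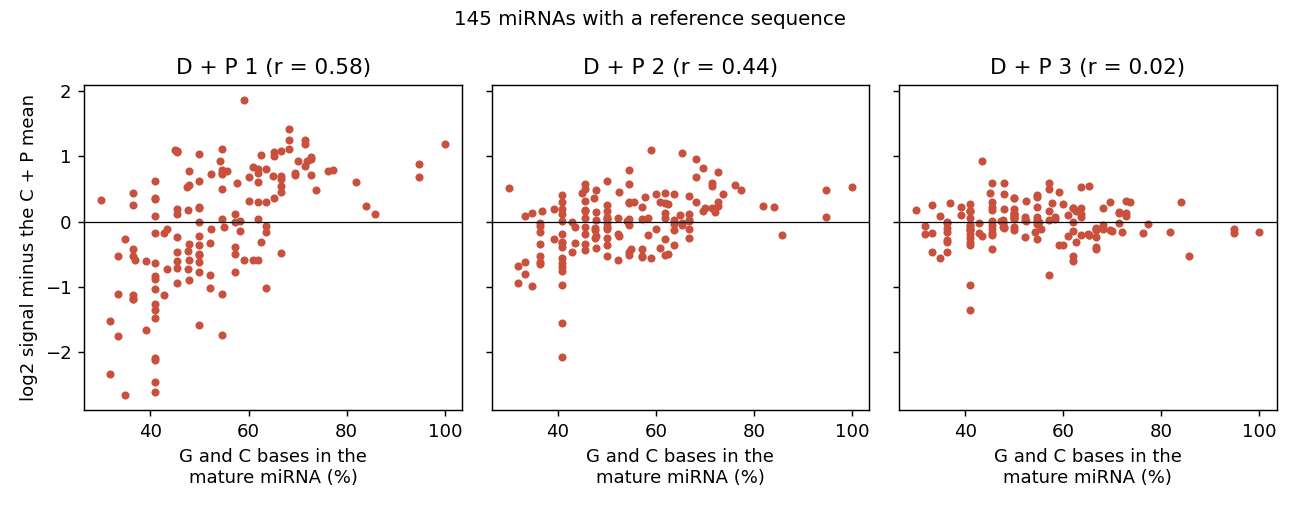
Log2 signal of each D + P array minus the C + P mean (vertical axis) against the share of G and C bases in the mature miRNA (horizontal axis, %), for 145 miRNAs with a reference sequence. The points of D + P 1 (r = 0.58) and D + P 2 (r = 0.44) rise from left to right, and those of D + P 3 (r = 0.02) lie level.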

How the data were processed

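RNA of 6 hearts (3 C + P, 3 D + P; slide 2) was measured on 1-colour miRNA arrays. The authors deposited, per array, the scanner software's intensity of 1881 miRNAs with an error and a detection flag; an undetected miRNA is written as 0.1, and arrays were not normalized to each other. The labels give 200 ng of RNA per labelling and the study's methods a smaller amount. The authors also deposited normalized intensity values after a detection filter and cyclic loess, used here as an alternative.

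Intensities of the 173 miRNAs detected on all 6 arrays were put on the log2 scale and then adjusted by cyclic loess (span 0.7, 3 iterations), and group means were fitted with limma 3.58.1 in R 4.3.3 (lmFit, eBayes; two-sided, Benjamini-Hochberg over 173, threshold 0.05). Normalization sets changes relative to the average miRNA. The number of arrays limits the precision. One value per array was compared by an exact permutation test. Groups come from the sample titles. The scripts were tested on simulated data.

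Members, lists and tests were chosen with earlier results of these data known. The text names miRNAs that passed, filled up to 20 with the largest changes whose arrays did not overlap (said not to pass); those detected on all 3 arrays of 1 group and none of the other; the 5 brightest; the 7 followed up by the study; the brightest members of the lists described, and others where a list is given in full; and seed or hairpin partners. The annotation of gene spans is RefSeq's, on GRCm38.p6. Alternatives were other normalizations, detection filters, models and tests, the replicate number as a block, and each array left out; counts within lists with each array left out were added after seeing the data. Arrays without pargyline entered the fit over 12 arrays, the filter on detection on all 12 and the detection of miR-208a-5p.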

Additional observations from a re-analysis of the deposited data

Results flagged for a closer look

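In a fit over the 4 groups of the series (128 miRNAs detected on all 12 arrays), the difference between diabetic and control hearts was compared under pargyline and without it, on arrays that the 2 comparisons do not share. The diabetes contrast differed (limma interaction, adjusted p under the threshold of 0.05) for all 16 miRNAs named by their change that could be tested there, and for 90 of the 128, so this is no feature of the named ones alone. For 15 of the 16 the signs were opposite. Slide 2 held the pargyline arrays and slide 1 the others, and the part of slide in the difference cannot be told apart from that of pargyline.

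The change under pargyline minus that without it was -1.74 for miR-146a-5p (-1.77 under pargyline, -0.04 without), the only one of the 16 with the same sign in both. For the other immune cell miRNAs it was -2.70 for miR-223-3p (-1.68 and 1.03) and -1.98 for miR-142a-3p (-1.40 and 0.58). Heart muscle miRNAs gave -2.19 for miR-1a-3p (-0.87 and 1.32) and -0.88 for miR-499-5p (-0.79 and 0.09). Among miRNAs known from fibroblasts it was -1.66 for miR-199a-3p and -0.83 for miR-21a-5p. The seed families gave -2.88 for miR-15b-5p (-1.06 and 1.82), -1.47 for let-7g-5p and -1.82 for let-7f-5p (-0.83 and 0.99). Of the miRNAs higher in D + P, it was 2.95 for miR-5622-3p (1.11 and -1.84), 1.54 for miR-7118-5p, 1.24 for miR-378d (0.75 and -0.49), 1.21 for miR-378a-3p, 1.20 for miR-30d-5p, 1.08 for miR-3102-5p and 0.97 for miR-486a-5p. Among the miRNAs followed up by the study, miR-27a-3p gave -1.11 (-0.12 and 0.99) and miR-152-3p -0.64 (-0.39 and 0.25).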

How the results depend on the processing

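The number of miRNAs called was 1 with quantile normalization, 75th percentile scaling over the 173, an intensity trend, the control feature covariate, or only miRNAs detected on all 12 arrays or on all 3 arrays of a group. It was 2 without normalization, with 75th percentile scaling over every miRNA (identical, as that percentile is the undetected value), with 16 added before the log2 and with array weights, 17 (7 higher, 10 lower) with 4 groups over 12 arrays, and 12 (2 higher, 10 lower) with the authors' values, where miR-146a-5p had a limma adjusted p of 0.099. It was 0 in limma with every miRNA detected on at least 1 array (41 at an unadjusted p under 0.05), and 0 and 0 with the methods' t-test under Benjamini-Hochberg and Holm adjustment (15 unadjusted). With an array left out it ranged from 0 to 67. Replicate numbers did not pair the samples (correlation of deviations 0.18, -0.04 and 0.27), and the fit with the replicate block called 0 (limma, 47 unadjusted; miR-146a-5p adjusted p = 0.061). MiR-146a-5p passed in 14 of 22 alternatives, with changes from -2.07 (without D + P 3) to -0.68 (with 16 added before the log2).

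All 20 miRNAs named by their change kept their direction under the alternatives in which they were tested. The groups did not overlap in any of the 20, mostly by the way they were chosen. Several alternatives also reuse the same group means. Much of this outcome was thus fixed in advance, and it is no independent evidence. MiR-133a-3p turned to 0.036 with quantile normalization and 0.11 with the covariate, and with an array left out it ranged from -0.26 to 0.036. MiR-185-5p turned to -0.28 without normalization and with the 75th percentile over every miRNA, and -0.039 with the authors' values, and with an array left out it ranged from -0.053 to 0.21. Over the 22 alternatives the median was -1.94 to -0.57 for immune cell miRNAs, -1.15 to -0.22 for let-7, -0.94 to -0.12 for miR-15 and miR-16, 0.11 to 0.82 for miR-378 and 0.11 to 0.81 for the second cluster. For immune cells, let-7, and miR-15 and miR-16, the weakest median came with the control feature covariate. With it 14 miRNAs had an unadjusted limma p under 0.05, in place of 42. The change was then -0.28 for let-7e-5p and -0.23 for miR-15b-5p, but -1.63 for miR-146a-5p. The medians that changed sign under at least 1 were those of heart muscle, red cells, smooth muscle, miR-17/92, miR-29, miR-30, miR-26, miR-10 and miR-99, miR-101, miR-130 and miR-148, miR-22 and the first cluster. The median change over all tested miRNAs moved from 0.03 to -0.30 without normalization, -0.17 with the authors' values and 0.25 with the 75th percentile over the 173.

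The ratio of median SDs was 0.83 without normalization and with the 75th percentile over every miRNA, and 1.29 to 4.29 with an array left out. MiRNAs detected on all arrays of one group and none of the other numbered 2 to 8 with an array left out. Differences in detected miRNAs and summed signal kept their sign in each alternative run.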

Other observations

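Among the 145 tested miRNAs with a reference sequence, both arms of a hairpin were present for 6 hairpins, and the signs of their changes were the same in 3. From the miR-22 hairpin, known from the response of heart muscle to stress, miR-22-3p measured 9.65, 9.28 and 9.36 in C + P and 10.52, 9.74 and 9.66 in D + P (change 0.54), while miR-22-5p measured 4.59, 4.70 and 4.87 in C + P and 4.09, 3.96 and 4.36 in D + P (change -0.59). Neither arm overlapped between the groups, in opposite directions, and neither passed the limma threshold (adjusted p = 0.23 and 0.15). The other pairs of opposite sign among these 6, from the miR-30e and miR-652 hairpins, had changes of 0.36 and -0.11 and of 0.49 and -0.20. Signals of the 2 arms come from different probes, and no test of their difference was run.

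Among the 16 seeds shared by 2 or more of these 145 miRNAs, all members lay on the same side for 5: miR-20a-5p, miR-93-5p and miR-106b-5p (all lower, median -0.39), miR-152-3p and miR-148a-3p (lower, -0.35), miR-125a-5p and miR-125b-5p (lower, -0.42), miR-107-3p and miR-103-3p (lower, -0.38), and miR-3473e and miR-3473b (higher, 0.21). Of 2 liver and gut miRNAs, every C + P array and D + P 2 and 3 detected miR-192-5p and miR-194-5p, with scanner signals of 2.80 to 11.5.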
